A study of Saccharomyces cerevisiae with 12 samples.

Results

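Transfer RNA carries many kinds of modified nucleoside, and the genes that install those other than dihydrouridine and pseudouridine were examined in RNA-seq of WT and DUS KO yeast. The list holds 43 genes of the 6612 features quantified, chosen by systematic name from known function with no measured value in the rule. It covers tRNA methyltransferases with their partner subunits, adenosine deaminases, wybutosine enzymes, Elongator, the thiolation pathway, and genes of threonylcarbamoyl, isopentenyl and acetyl modifications, of the extra guanosine of histidine tRNA, and of the mitochondrial wobble uridine. All 43 are annotated in the R64 genome on 12 of its chromosomes. Their coding length equals that of the quantified feature (300 to 4311 nt). Introns lie in 2 of them, TAD3 (3 coding exons) and TAN1 (2 coding exons). WT was *Saccharomyces cerevisiae* BY4741. DUS KO was the mutant labelled *dus1Δ dus2Δ dus3Δ dus4Δ*, after the 4 dihydrouridine synthases, which was obtained from a cross of 2 double mutants by tetrad dissection, so that other alleles could segregate with the deletions. Both strains were harvested untreated, and poly(A) RNA was sequenced without borohydride in 3 libraries per strain. The paper's methods give a culture density at RNA isolation and name no growth phase. No source says that the libraries came from separate cultures, so errors and p-values measure only the spread between these libraries.

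The chemistry behind the list is well known. Methyltransferases add methyl groups to bases or riboses, several of them only as a catalytic subunit with a partner. Deaminases turn adenosine into inosine, which at the wobble position widens the pairing of that base. Elongator, the methyltransferase Trm9 and the sulfur relay from Uba4 and Urm1 to Ncs6 and Ncs2 build the modified wobble uridine of lysine, glutamate and glutamine tRNAs. Wybutosine, threonylcarbamoyladenosine and isopentenyladenosine sit next to the anticodon and help hold the reading frame.

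Estimated counts summed to between 656162 and 5652837 per library, and DUS KO replicate 3 was the shallowest. The 43 genes took 0.0936% to 0.127% of them. Their median count per gene was 93 to 115.48 in the WT libraries, and 134, 72 and 14 for DUS KO replicates 1, 2 and 3. Among the deleted genes, DUS1 and DUS4 had 0 counts in every DUS KO library and DUS2 had 3, all from replicate 3. DUS3 still had reads in the libraries with that label. Its level was 29.5, 16.5 and 25.1 CPM (TMM-scaled counts divided by library size) across WT libraries, then 10.8, 16.7 and 8.91 CPM across the libraries labelled DUS KO, where replicate 2 lay above WT replicate 2. The fitted log2 fold change of DUS3 was -0.92 with an adjusted p of 0.577 in edgeR's test. Reads remained in every library labelled DUS KO, so its deletion is not borne out by these values. Those estimated counts (64.1, 52.2 and 6.49) were not whole, so part of them is shared with another feature. The paper, however, states that the strain was genotyped by PCR with DUS3 oligos. It also detected dihydrouridine in mRNA of WT but not of DUS KO. Every direction below is that of the libraries labelled DUS KO. LEU2 and URA3, which BY4741 lacks, were at 0 throughout. MET17, which BY4741 also lacks, had 0 counts in WT replicate 1. It had 92 and 155 in WT replicates 2 and 3 and 37 to 618 in the DUS KO libraries. WT replicates 2 and 3 thus go against that part of the genotype. HIS3, the remaining auxotrophy gene of BY4741 that was checked, had reads in every library. Its counts were 102, 142 and 154 for WT, then 181, 87 and 28 for DUS KO. The summed level of MFA1, MFA2, STE2 and BAR1, genes of **a** cells, lay between 278 and 693 CPM for WT and between 905 and 926 for DUS KO, with none of the 4 at 0. The sum of 4 alpha-cell genes lay between 13.1 and 17.7 CPM for WT and between 7.43 and 12.8 for DUS KO, and MF(ALPHA)1 had only 2 counts, from DUS KO replicate 2. The part of these differences in the results was not tested.

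Levels were compared between genes by TPM, which allows for length. The 43 genes had a median WT level of 4.11 TPM, against 3.43 TPM over all features. TRM112, the small activating subunit that several methyltransferases share, was the highest member within each of the 6 libraries. Its TPM was 40.0, 26.3 and 36.8 for WT and 46.4, 42.8 and 50.0 for DUS KO. NCS6, which puts sulfur on the wobble uridine, followed with a WT mean of 22.6 ± 3.46 TPM (SD, n = 3). TAD2, the catalytic subunit of the wobble deaminase, was the third with 15.9 ± 2.26 TPM, and its libraries overlapped those of URM1, the ubiquitin-like sulfur carrier, with 14.4 ± 5.64 TPM.

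At the other end stood PPM2, which completes the side chain of wybutosine, with 42 counts over the 6 libraries and 0.235 ± 0.0508 TPM in WT. It was the only member that did not pass the filter on low counts, and it was not tested. NCS2, the partner of NCS6, had a WT mean of 1.38 ± 0.375 TPM and TRM3, a ribose methyltransferase of the D loop, one of 1.45 ± 0.2003 TPM, which do not differ beyond their spread. Replicates spread alike in both strains, with a median coefficient of variation of CPM of 22.3% over the members in WT and 23.8% in DUS KO. WT replicate 2 was the lowest WT library for 25 of the 43 members, and DUS KO replicate 3 the lowest of its strain for 19.

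**Figure D1:**
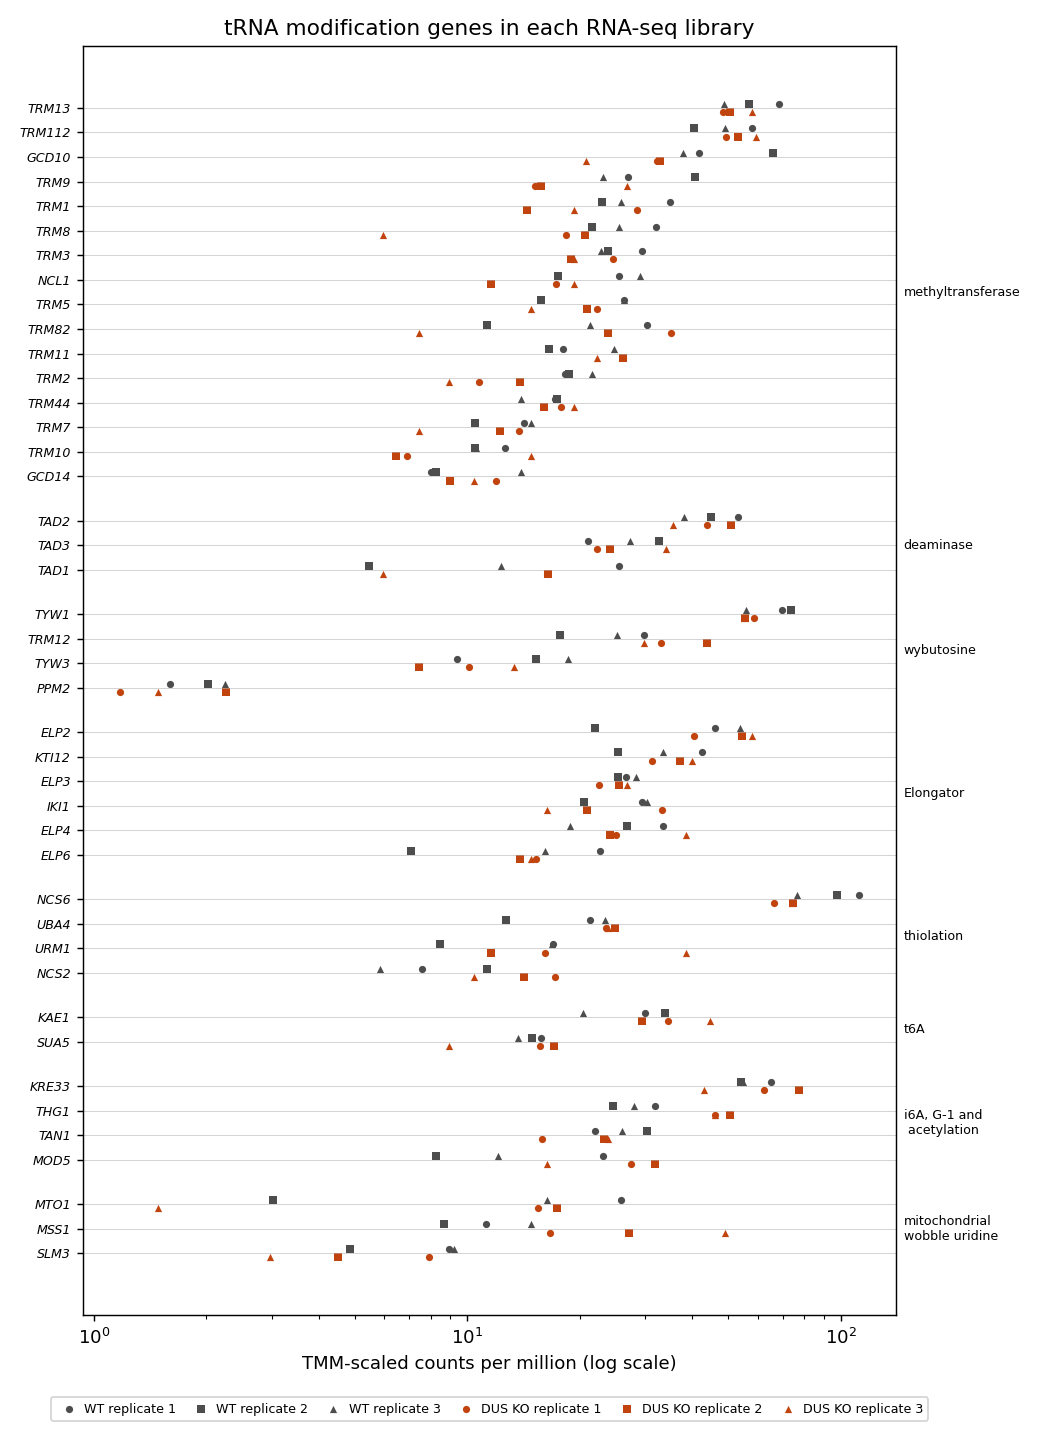
TMM-scaled CPM (log axis) of 42 of the 43 genes in each of the 6 libraries, grouped by modification, with WT in grey and DUS KO in orange and 1 marker shape per replicate number. The strains overlap in most rows, while the 3 DUS KO points of THG1 (46.0, 50.6 and 46.0 CPM) lie above its WT points (31.8, 24.6 and 28.0 CPM).

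The strains were compared with edgeR's quasi-likelihood test over the 5884 features that passed the filter, with Benjamini-Hochberg adjustment over all of them. None of the 42 members tested was called at an adjusted p under 0.05, a threshold passed by 0.085% of all features (5 features). The deleted genes DUS1, DUS2 and DUS4 were among those 5. limma-voom called no member either, but it called 0 features of the whole table, so it missed these deleted genes too. DESeq2 gave an adjusted p to only 4 of the 43 members, and called none of these 4. At an unadjusted p under 0.05, edgeR gave 2 members higher in DUS KO, MSS1 and THG1, where 3.33% of all features were, and 1 member lower, GCD10, where 4.93% of all features were. DESeq2 gave 2 members at that level (7.52% of all features) and limma-voom 5 (10.2% of all features). All 3 DUS KO libraries lay above the 3 WT libraries for 3 members (7.83% of all features) and below them for 4 (7.68% of all features). The members' shares are thus near those of the whole table. Their median log2 fold change was -0.06 and that of all features -0.02, with 17 members above 0 and 25 below (51.6% of all features were below). With total counts alone the median of all features moved to 0.16 and that of the members to 0.12, and on log2(TPM + 1) to 0.22 and 0.18.

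The intervals show how large a difference could have gone unseen. The standard error of the log2 fold change ran from 0.22 for NCS6 to 0.72 for MTO1, with a median of 0.35. The 95% interval lay wholly within a change of 1 on the log2 scale, up or down, for 16 of the 42 members, and the levels of the others cannot be called equal.

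**Figure D2:**
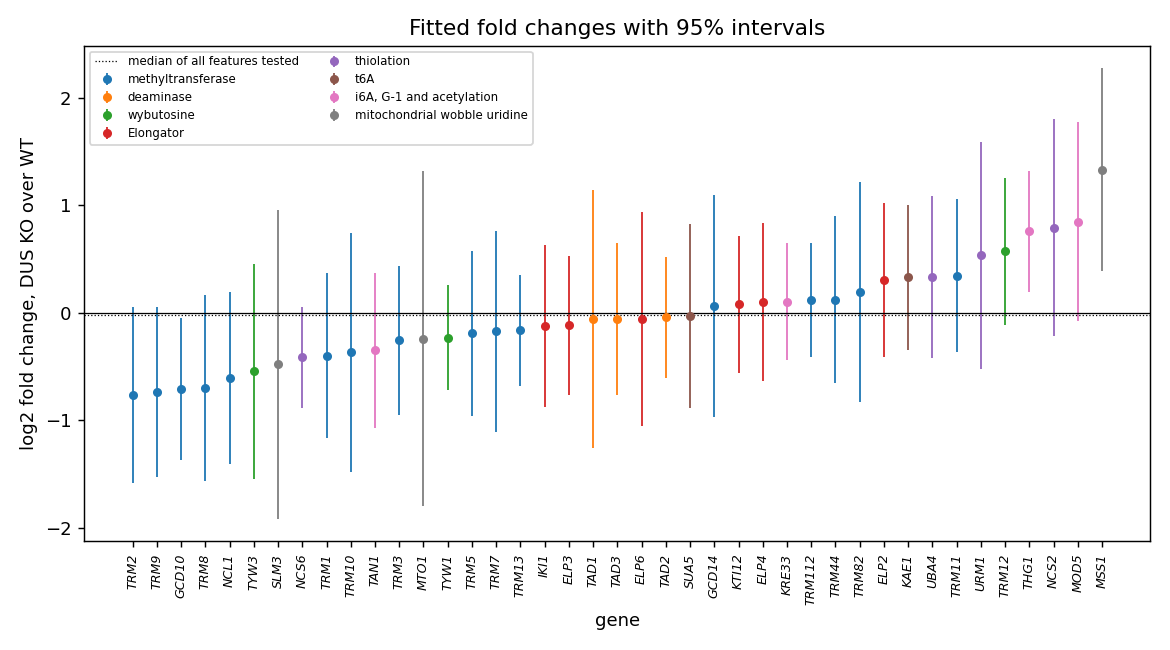
Fitted log2 fold change of DUS KO over WT for 41 of the 42 genes tested, in order, with 95% intervals and 1 colour per modification, and a dotted line at the median of all features (-0.02). The points run from -0.77 (TRM2) to 1.33 (MSS1), and no member passed the adjusted threshold.

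Of the mitochondrial genes, MSS1 (YMR023C, chromosome XIII, 319437 to 321017, minus strand) had the largest fitted difference of the whole list. It encodes the GTPase that, with Mto1, modifies the wobble uridine of mitochondrial tRNAs. WT libraries read 11.2, 8.67 and 14.8 CPM, against 16.7, 27.1 and 49.0 CPM for the mutant libraries. The strains did not overlap, but the mutant values were far apart, and the highest rests on 33 counts (95% exact Poisson interval 33.7 to 68.8 CPM, counting error only). In edgeR's fit the log2 fold change was 1.33 ± 0.44 (SE), with an unadjusted p of 0.00918 and an adjusted p of 0.415, and it came to 0.91 without DUS KO replicate 3.

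MTO1 (YGL236C), the flavoprotein of the same reaction, overlapped fully between the strains. As the partner of MSS1 it is given by library, a choice made after its values were seen: WT libraries read 25.9, 3.02 and 16.4 CPM, against 15.5, 17.4 and 1.49 CPM for the mutant libraries. Its reads are shared with the overlapping feature YGL235W, and the sum of both was 113, 16 and 76 counts for WT, then 130, 60 and 4 for DUS KO. The fitted log2 fold change of MTO1 was -0.24, but 0.14 with shared reads summed, 0.38 without WT replicate 1, 0.13 without DUS KO replicate 3 and 0.50 with limma-voom, so no direction is given for it. SLM3, which adds sulfur to the same uridine, averaged 7.66 ± 2.44 CPM (SD, n = 3) for WT against 5.13 ± 2.53 CPM for DUS KO. SLM3 shares reads with YDL032W, and the sum of both was 39, 25 and 50 counts for WT, then 53, 16 and 2 for DUS KO.

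THG1 (YGR024C, chromosome VII, 531883 to 532596, minus strand) adds the guanosine that identifies histidine tRNA to its 5′ end. WT libraries read 31.8, 24.6 and 28.0 CPM, against 46.0, 50.6 and 46.0 CPM for the mutant libraries. The gap between the strains was wider than the range within either. A 1.69-fold higher level was fitted by edgeR, a log2 fold change of 0.76 ± 0.26 (SE, 95% interval 0.19 to 1.32) with an unadjusted p of 0.0126 and an adjusted p of 0.466. Over the 18 alternatives this value stayed between 0.58 and 1.06 on the log2 scale, and it was not called in the 17 that gave it an adjusted p (DESeq2 gave none).

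MOD5 (YOR274W) makes isopentenyladenosine on cytosolic and mitochondrial tRNAs. WT libraries read 23.1, 8.27 and 12.1 CPM, against 27.4, 31.9 and 16.3 CPM for the mutant libraries. WT replicate 1 lay above DUS KO replicate 3, so the strains overlapped. edgeR fitted 0.85 ± 0.43 (log2, SE) with an adjusted p of 0.630, and the value moved to 1.35 without WT replicate 1, 0.58 without WT replicate 2 and 0.20 with WT replicate 1 as the only WT library.

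The acetylation and threonylcarbamoyl genes overlapped between the strains. KRE33, the RNA cytidine acetyltransferase, averaged 58.0 ± 6.30 CPM (SD, n = 3) for WT against 60.9 ± 17.1 CPM for DUS KO, and its tRNA adaptor TAN1 averaged 26.1 ± 4.13 CPM against 20.9 ± 4.43 CPM. KAE1, which transfers the threonylcarbamoyl group, averaged 28.1 ± 6.93 CPM for WT against 36.1 ± 7.76 CPM for DUS KO. SUA5, which makes the activated intermediate, averaged 14.8 ± 1.07 CPM against 13.9 ± 4.36 CPM.

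For the 16 methyltransferase genes the fitted values lay below 0 in 11 and above 0 in 5, with a median log2 fold change of -0.22 against -0.02 for all features, of which 51.6% lay below 0. That median was -0.04 with total counts alone and 0.03 on log2(TPM + 1) and on log2(TPM + 0.1), where it lay above 0, and relative to all features it was -0.21, -0.19 and -0.25. None of the 16 was called, and GCD10 alone had an unadjusted p under 0.05.

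GCD10 (YNL062C, chromosome XIV, 508776 to 510212, minus strand) is the RNA-binding subunit of the enzyme that makes N1-methyladenosine in the T loop. WT libraries read 41.7, 65.9 and 37.9 CPM, against 32.3, 32.8 and 20.8 CPM for the mutant libraries. All mutant values lay below WT, and WT replicate 2 stood well above the other WT libraries. By edgeR the log2 fold change was -0.71 ± 0.31 (SE), with an unadjusted p of 0.0372 and an adjusted p of 0.577, and it was -0.42 without WT replicate 2. GCD14, the catalytic subunit, averaged 10.1 ± 3.33 CPM (SD, n = 3) for WT against 10.5 ± 1.47 CPM for DUS KO.

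TRM2 (YKR056W, chromosome XI, 549448 to 551367, plus strand) makes the ribothymidine of the T loop and had the lowest fitted value of the list. WT libraries read 18.3, 18.8 and 21.5 CPM, against 10.8, 13.8 and 8.91 CPM for the mutant libraries. The strains did not overlap, and the WT values lay close together. edgeR fitted -0.77 ± 0.38 (log2, SE, 95% interval -1.59 to 0.06) with an adjusted p of 0.627.

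TRM8 (YDL201W) is the catalytic subunit of the tRNA 7-methylguanosine enzyme. WT libraries read 32.1, 21.6 and 25.6 CPM, against 18.3, 20.6 and 5.94 CPM for the mutant libraries. Replicate 2 of each strain lay side by side at the border, and the lowest value rests on 4 counts (95% exact Poisson interval 1.62 to 15.2 CPM). edgeR fitted -0.70 ± 0.40 (log2, SE) with an adjusted p of 0.687, and -0.44 without that library, DUS KO replicate 3. TRM82, its WD-repeat partner, averaged 20.9 ± 9.48 CPM (SD, n = 3) for WT against 22.1 ± 14.0 CPM for DUS KO.

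TRM9 (YML014W) adds the last methyl group to the side chain of the wobble uridine. WT libraries read 27.0, 40.7 and 23.1 CPM, against 15.1, 15.8 and 26.7 CPM for the mutant libraries. DUS KO replicate 3 lay among the WT libraries. edgeR fitted -0.74 ± 0.37 (log2, SE) with an adjusted p of 0.627, and -0.48 without WT replicate 2.

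The other methyltransferase genes overlapped between the strains. TRM1, which makes dimethylguanosine, averaged 27.9 ± 6.18 CPM (SD, n = 3) for WT against 20.8 ± 7.09 CPM for DUS KO, and NCL1, the 5-methylcytosine enzyme, 24.0 ± 5.83 CPM against 16.1 ± 4.01 CPM. TRM11, which methylates a guanosine of the D stem together with Trm112, averaged 19.8 ± 4.32 CPM for WT against 24.8 ± 2.20 CPM for DUS KO. TRM13, a ribose methyltransferase of the acceptor stem, averaged 58.0 ± 9.95 CPM against 52.3 ± 4.97 CPM. The means of TRM3, TRM5, TRM7, TRM10 and TRM44 lay between 11.2 and 25.3 CPM for WT and between 9.40 and 21.0 CPM for DUS KO. The counts of TRM5, which makes 1-methylguanosine next to the anticodon, were not whole in any library, and no single feature was found that shares its reads.

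Elongator has 6 different subunits, and the fitted values of their genes and of KTI12 lay between -0.12 and 0.31 on the log2 scale. ELP3, the radical enzyme that modifies the uridine, averaged 26.7 ± 1.43 CPM (SD, n = 3) for WT against 24.9 ± 2.14 CPM for DUS KO, and ELP2, a WD-repeat subunit, 40.6 ± 16.6 CPM against 50.9 ± 9.28 CPM. The ring-forming subunits followed, ELP4 with 26.4 ± 7.31 CPM against 29.3 ± 8.10 CPM, IKI1 (Elp5) with 26.7 ± 5.35 CPM against 23.5 ± 8.79 CPM, and ELP6 with 15.3 ± 7.84 CPM against 14.7 ± 0.752 CPM. KTI12, an ATPase that works with Elongator, averaged 33.8 ± 8.60 CPM for WT against 36.2 ± 4.47 CPM for DUS KO. None of the 7 had an unadjusted p under 0.05, and for 5 the 95% interval lay within a change of 1 on the log2 scale.

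The thiolation genes had fitted values on both sides of 0. NCS6 (YGL211W, chromosome VII, 92512 to 93591, plus strand) is the sulfur-adding enzyme. WT libraries read 112, 98.0 and 76.3 CPM, against 66.5, 74.4 and 74.3 CPM for the mutant libraries. All mutant values lay below WT, with WT replicate 3 only slightly above them. edgeR fitted -0.42 ± 0.22 (log2, SE) with an adjusted p of 0.649, and on log2(TPM + 1) the difference was -0.08, where the median of all features was 0.22.

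NCS2 (YNL119W) works with NCS6. WT libraries read 7.56, 11.3 and 5.83 CPM, against 17.2, 14.2 and 10.4 CPM for the mutant libraries. The lowest mutant value lay below the highest WT value. edgeR fitted 0.79 ± 0.47 (log2, SE) with an adjusted p of 0.696. It shares reads with YNL120C, and the sum of both was 38, 56 and 31 counts for WT, then 109, 44 and 7 for DUS KO.

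UBA4 (YHR111W) activates Urm1. WT libraries read 21.3, 12.7 and 23.3 CPM, against 23.6, 24.8 and 23.8 CPM for the mutant libraries. The strains did not overlap, by a narrow margin over WT replicate 3. The fit in edgeR gave 0.33 ± 0.35 (log2, SE) with an adjusted p of 0.863, and 0.11 without WT replicate 2. URM1 averaged 14.1 ± 4.86 CPM (SD, n = 3) for WT against 22.1 ± 14.5 CPM for DUS KO.

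The deaminase genes overlapped between the strains. TAD2 averaged 45.4 ± 7.51 CPM (SD, n = 3) for WT against 43.4 ± 7.62 CPM for DUS KO, its partner TAD3 27.0 ± 5.81 CPM against 26.8 ± 6.41 CPM, and TAD1, the deaminase of alanine tRNA, 14.4 ± 10.1 CPM against 12.9 ± 6.02 CPM. Their median log2 fold change was -0.06, but 0.13 with total counts alone and 0.23 on log2(TPM + 1), where that of all features was 0.16 and 0.22. Of the wybutosine genes, TYW1, which builds the tricyclic core, averaged 66.4 ± 9.28 CPM for WT against 56.3 ± 1.98 CPM for DUS KO. TRM12 (Tyw2), which adds the side chain, averaged 24.2 ± 6.07 CPM against 35.5 ± 7.37 CPM, and TYW3, a methyltransferase of the pathway, 14.4 ± 4.68 CPM against 10.3 ± 2.99 CPM.

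Because DUS KO and WT replicates 2 and 3 both carried MET17 reads while WT replicate 1 did not, the comparison was repeated with WT replicate 1 as the only WT library. The spread then came from the DUS KO libraries alone, and WT was assumed to vary like them, so only the fitted values are given. The members' median log2 fold change was -0.25, against 0.03 for all features. THG1 was then 0.58, MSS1 1.30, NCS2 0.95 and UBA4 0.17 on the log2 scale. TRM2 was -0.66, TRM8 -0.94, TRM9 -0.61, GCD10 -0.48 and NCS6 -0.65.

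Several of these enzymes work as pairs, and the ratio of the partners' TPM within a library does not depend on the scaling between libraries. For TRM8 to TRM82 the ratio was 1.69, 3.04 and 1.91 across WT libraries, then 0.830, 1.38 and 1.27 across DUS KO libraries, lower in each of these. For TRM9 to TRM112 it was 0.208, 0.449 and 0.211, then 0.137, 0.133 and 0.201, apart only by a narrow margin. For NCS2 to NCS6 it was 0.0483, 0.0827 and 0.0544, then 0.185, 0.137 and 0.1004, higher in each DUS KO library. NCS6 stood far above NCS2 in both strains. In DUS KO replicate 3 these ratios rest on few counts, 4 for TRM8, 5 for TRM82 and 7 for NCS2. The share of all gene pairs whose ratios lie apart was not computed, and of single features 15.5% did not overlap between the strains.

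The other pairs overlapped. TAD2 to TAD3 spanned 1.80 to 3.31 for WT and 1.37 to 2.76 for DUS KO, and GCD10 to GCD14 spanned 2.16 to 6.33 and 1.59 to 2.89. TRM11 to TRM112 spanned 0.0877 to 0.142 for WT and 0.105 to 0.149 for DUS KO, and TAN1 to KRE33 spanned 1.29 to 2.15 and 0.975 to 2.12. MSS1 to MTO1 spanned 0.556 to 3.78 for WT and 1.37 to 31.9 for DUS KO, where the highest value comes from the shallowest library. Trm112 serves Mtq2 and Bud23 as well, which act on a release factor and on ribosomal RNA. TRM112 over the summed TPM of TRM9, TRM11, MTQ2 and BUD23, a ratio chosen after the values were seen, was 0.867, 0.715 and 0.916 across WT libraries, then 1.18, 0.975 and 1.20 across DUS KO libraries. These ratios were not tested.

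**Figure D3:**
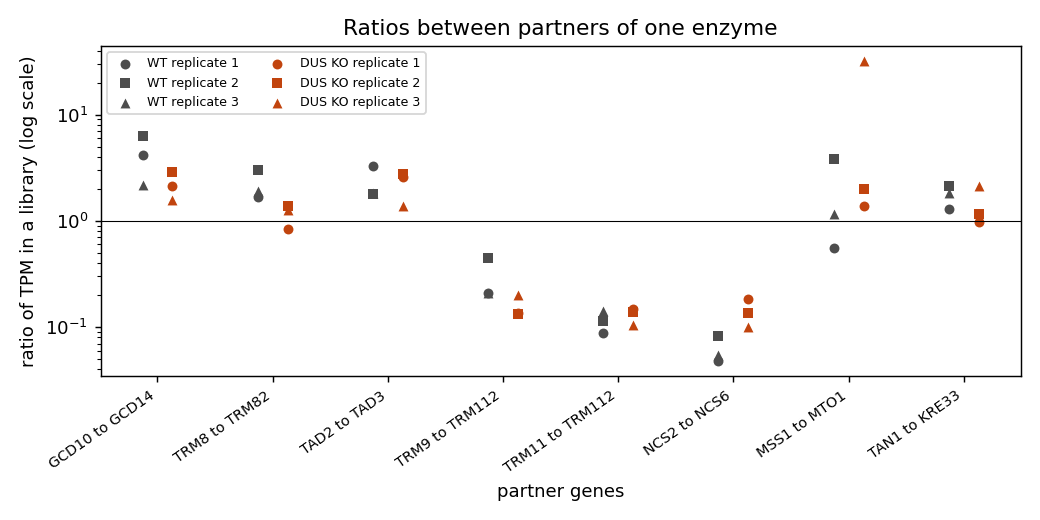
Ratio of the TPM of 2 partner genes within each library (log axis), WT in grey and DUS KO in orange, 1 marker shape per replicate number. The strains are apart for TRM8 to TRM82, TRM9 to TRM112 (narrowly) and NCS2 to NCS6, and overlap for the other 5 pairs. The share of all gene pairs that lie apart was not computed.

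A further 20 genes that assist these enzymes, such as regulators of Elongator, subunits around Kae1 and sulfur donors, were read from the same fit. edgeR called none of the 20, and 1, the Elongator regulator ATS1, had an unadjusted p under 0.05, with -0.53 ± 0.24 (log2, SE) and an adjusted p of 0.591. Their median was -0.23, with 18 below 0 and 2 above, where 51.6% of all features lay below. On log2(TPM + 1) that median was 0.09, or -0.13 relative to all features. Below WT in every DUS KO library lay 3 of the 20 (7.68% of all features), and above it 0 (7.83% of all features). On the TMM scale their summed level lay between 770 and 888 CPM for WT and between 637 and 741 CPM for DUS KO. Their median level in TPM was not lower, at 7.34 for WT and 7.86 for DUS KO, against 3.43 and 4.33 over all features.

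The promoters share features that the rule did not use. The PAC and RRPE elements are short motifs upstream of many yeast genes of ribosome production, and their cores were searched for as GATGAG and AAAATTTT on both strands of the 250 bases before each start codon in the R64 genome. The second core is its own reverse complement. The PAC core was found in 24 of 43 members (55.8%) and in 17.0% of all 6001 promoters, and the RRPE core in 12 members (27.9%) and in 8.65% of all promoters. Both were found in 9 members (20.9%) and in 4.08% of all promoters. The nearest match lay a median of 91.5 bases before the start codon for PAC and 100.5 for RRPE. Among the 16 methyltransferase genes 10 had the PAC core and 7 the RRPE core. A match is a run of letters, not a site of binding.

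The windows below are given on the sense strand of each gene, 5′ to 3′, with the core in capitals, because they show how close the cores lie to each other. The first 2 belong to members below WT in every DUS KO library, the third to the most abundant member, and the last 2 to the partner of TRM8 and to the acetyltransferase.
GCD10 RRPE, chrXIV:510387-510416, minus strand: gcgatgagatgAAAATTTTtttcagaaaac
NCS6 PAC, chrVII:92461-92490, plus strand: aaaaattttggcGATGAGacgatatggtaa
TRM112 PAC, chrXIV:707677-707706, plus strand: aaaattttcatcGATGAGctttaaaagcaa
TRM82 PAC, chrIV:784756-784785, plus strand: gtgaaaaaaatcGATGAGatgaaaaaattt
KRE33 PAC, chrXIV:375163-375192, plus strand: aagatacaatgaGATGAGatgaggtgctga
In the GCD10, NCS6 and TRM112 windows the other core stands upstream in lower case, and in the KRE33 window the PAC core occurs again, overlapping the first.

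**Figure D4:**
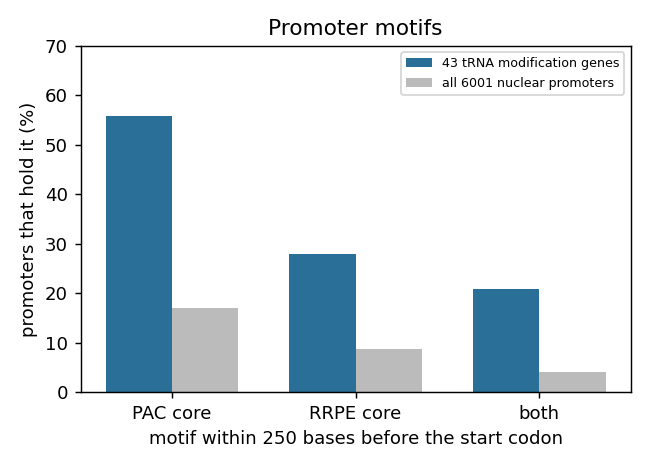
Percentage of promoters that hold the PAC core, the RRPE core or both within 250 bases before the start codon, for the 43 genes and for all 6001 nuclear promoters. The bars of the 43 genes stand at 55.8%, 27.9% and 20.9%, and those of all promoters at 17.0%, 8.65% and 4.08%.

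The median log2 fold change was -0.06 over the 23 tested members with the PAC core and -0.06 over the 19 without, and over all genes tested with a promoter it was -0.08 and -0.02. Over the 9 members with both cores it was -0.12, with 2 of them below WT in every DUS KO library, and over the 16 with neither it was -0.05. THG1, MSS1 and UBA4, above WT in every DUS KO library, had neither core. Of the 4 below WT, GCD10 and NCS6 had both, TRM8 had only the RRPE core and TRM2 had neither. Over all such genes, the median was -0.18 for the 242 with both cores and -0.02 for the 4323 with neither. Among the former, 14.5% lay below WT in every DUS KO library and 3.31% above, and among the latter 7.45% and 7.43%. These values are given as a description, without a test.

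**Figure D5:**
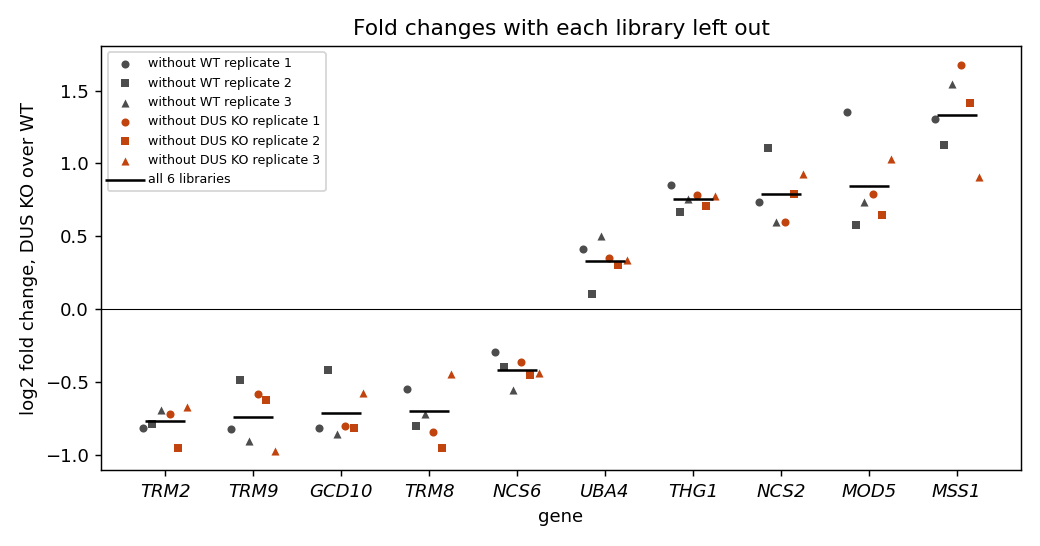
Log2 fold change of DUS KO over WT for the 10 genes given by the naming rule, with all 6 libraries (black bar) and with each library left out in turn (WT in grey, DUS KO in orange). No gene crosses 0, an outcome largely fixed by the naming rule, which took genes without overlap or with the largest changes. The values of MSS1 run from 0.91 to 1.67.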

How the data were processed

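RNA-seq libraries of 3 WT and 3 DUS KO replicates were analysed, and D-seq libraries were not used here. The authors deposited, per coding feature, an estimated count (not normalized, and not whole where reads are shared) and a TPM value (per effective length and library total). For their sequencing data the methods name bbduk, dedupe and bbmap and the build sacCer3 (the R64 assembly). No program for the estimated counts, and no use of strand in it, is stated in the sources read.

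Estimated counts were rounded, filtered with filterByExpr (5884 of 6612 features kept) and scaled by TMM. They were tested with edgeR 4.0.16 (R 4.3.3, robust quasi-likelihood, no block, Benjamini-Hochberg, threshold 0.05). The fit was checked on simulated data in which the changed features had larger fold changes than any member. That check does not cover changes of the members' size. CPM was TMM-scaled. The standard error (SE) is the size of the log2 fold change over the square root of F. Shared reads were found by sums whole within 0.02 in every library. The 6 members with counts that were not whole were TRM5, TAD3, ELP4, NCS2, SLM3 and MTO1. Members and lists were chosen with earlier results of these data known. Library values and fold changes were given for members called, members without overlap between the strains, and the 3 largest fitted changes each way. The other members are named by level. The values of 1 member are not reported here. Alternatives were other scalings and filters, DESeq2 1.42.0, limma 3.58.1 (voom, and log2 TPM with a pseudocount of 1 or 0.1), a replicate block and each library left out. Summing shared reads and using WT replicate 1 as the only WT library were added after seeing the data. Intervals cover counting error only where named as Poisson.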

Additional observations from a re-analysis of the deposited data

How the results depend on the processing

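No member with an adjusted p was called under any of the 18 alternatives, but DESeq2 gave one to only 4 of the 43 members, and with WT replicate 1 as the only WT library the spread came from DUS KO alone. The 10 genes given by the naming rule kept their direction wherever they were tested, and MTO1 did not (-0.94 to 0.50). The rule took genes without overlap between the strains or with the largest fitted changes, so their kept direction was largely fixed by it. The number of genes called over the whole table was 5, and it was 3 with total counts alone, 1 with at least 10 counts in every library, 59 with DESeq2, 0 with limma-voom, where 600 features had an unadjusted p under 0.05, 10 with limma on log2(TPM + 1), 3 with the replicate block and 22 with WT replicate 1 as the only WT library. Leaving out 1 library gave 1 (without DUS KO replicate 1) to 12 (without WT replicate 1).

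Members at an unadjusted p under 0.05 numbered 3 (8.26% of all features), 5 with limma-voom (10.2%), 5 with limma on log2(TPM + 1) (13.1%) and on log2(TPM + 0.1) (12.1%), and 1 (without DUS KO replicate 2, 5.34%) to 5 (without WT replicate 3, 11.5%) with 1 library left out. Members without overlap between the strains numbered 7 (15.5% of all features), 11 on either TPM scale (20.6%), 27 against WT replicate 1 alone (55.2%), and 9 (without DUS KO replicate 2, 24.2%) to 14 (without DUS KO replicate 3, 24.4%) with 1 library left out.

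The members' median log2 fold change of -0.06 became 0.12 with total counts alone, 0.18 on log2(TPM + 1), 0.24 on log2(TPM + 0.1) and -0.25 with WT replicate 1 alone, while the median of all features became 0.16, 0.22, 0.29 and 0.03. Relative to all features the first 3 were -0.04, -0.04 and -0.05, as it was with TMM (-0.04). Without single libraries the members' median ran from -0.16 to 0.02.

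No pairing by replicate number was seen, since same-numbered libraries deviated together with correlations of 0.03, -0.04 and -0.07. Those of different numbers had correlations of -0.05 to 0.07. Whether same-numbered libraries were prepared together is not shown by these values. The block left 3 genes called and no member. Depth limits the members most in DUS KO replicate 3, where their median was 14 counts. The cause of these shifts was not tested.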
